A study of Mus musculus with 6 samples.

Results

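The 10 genes described here encode cyclins (Ccna2, Ccnb1, Ccnb2, Ccnd1, Ccnd3, Ccne1, Ccnf) and cyclin-dependent kinases (Cdk1, Cdk2, Cdk4). They were taken by gene symbol from a table of 19213 genes, and all 10 were listed and passed the filter on low values. The table covers polyA RNA of mouse melanoma cells, with 3 libraries of cells in which Spp1, the gene of the secreted protein osteopontin, had been knocked out with CRISPR-Cas9, and 3 libraries of cells carrying a non-targeting control. No treatment was named beside the CRISPR step, and the labels place all 6 libraries in 1 batch as biological replicates without naming clones, pools or cultures. The p-values thus measure only the spread between these samples, which may be technical. The labels name different cells for every library, B16F13, B16F14 and B16F15 in the knockout and B16F10, B16F11 and B16F12 in the control. B16F10 is a metastatic mouse melanoma line. Whether the other names stand for other cells is not given in the sources used here, and a difference between the cells cannot be told apart from the knockout.

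Cyclins are regulatory subunits that rise and fall through the cell cycle and switch on the kinases to which they bind. The D-type cyclins act with Cdk4 in G1 and respond to mitogens, cyclin E1 acts with Cdk2 at the entry into S phase, cyclin A2 binds Cdk2 and Cdk1 in S and G2 phase, and the B-type cyclins drive mitosis with Cdk1. Cyclin F is an exception, since it is the substrate-recognition subunit of a ubiquitin ligase and does not activate a kinase. In melanoma the pathway from cyclin D1 and Cdk4 to the retinoblastoma protein is a frequent site of lesions.

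Many promoters of cyclin and kinase genes carry short elements that tie transcription to the cell cycle. The cell cycle genes homology region, or CHR, is bound by the DREAM and MuvB complexes, CCAAT boxes are bound by NF-Y, and E2F sites by the E2F factors. RefSeq promoters on GRCm38.p6, each covering 250 bases before and 50 bases from the annotated start, were at hand for 8 of the 10 genes, and Ccna2 and Ccnd1 are named only. Searched on both strands were the CHR words TTTGAA and TTCGAA, the CCAAT box as CCAAT, and the E2F words TTTCCCGC, TTTCGCGC, TTTGCCGC and TTTGGCGC. Of all 32851 promoters of this length 19.2% held a CHR word, 37.4% a CCAAT box and 2.26% an E2F word. The promoters of 4 genes are printed 5′ to 3′. They carry most of the words found and were picked with the changes of their genes known. Whether the words bear on the changes was not tested. All 4 lie on the minus strand, at chr10:69352863-69353162 for Cdk1, chr9:70421505-70421804 for Ccnb2, chr17:24251360-24251659 for Ccnf and chr10:128705002-128705301 for Cdk2. Capitals mark the words found, where ATTGG and GCGGGAAA are the reverse strand of a CCAAT box and of an E2F word.
Cdk1: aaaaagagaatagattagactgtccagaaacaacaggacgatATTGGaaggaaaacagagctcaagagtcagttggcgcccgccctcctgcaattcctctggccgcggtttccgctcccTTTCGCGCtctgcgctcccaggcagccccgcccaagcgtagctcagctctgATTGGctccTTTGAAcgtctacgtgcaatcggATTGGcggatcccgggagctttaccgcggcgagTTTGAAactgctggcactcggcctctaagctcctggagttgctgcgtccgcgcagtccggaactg
Ccnb2: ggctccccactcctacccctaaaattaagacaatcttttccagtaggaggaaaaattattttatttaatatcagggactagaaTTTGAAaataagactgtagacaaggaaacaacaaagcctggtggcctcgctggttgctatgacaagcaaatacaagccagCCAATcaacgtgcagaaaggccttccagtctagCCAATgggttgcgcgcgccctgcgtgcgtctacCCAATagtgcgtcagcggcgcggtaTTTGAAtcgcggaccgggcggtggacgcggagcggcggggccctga
Ccnf: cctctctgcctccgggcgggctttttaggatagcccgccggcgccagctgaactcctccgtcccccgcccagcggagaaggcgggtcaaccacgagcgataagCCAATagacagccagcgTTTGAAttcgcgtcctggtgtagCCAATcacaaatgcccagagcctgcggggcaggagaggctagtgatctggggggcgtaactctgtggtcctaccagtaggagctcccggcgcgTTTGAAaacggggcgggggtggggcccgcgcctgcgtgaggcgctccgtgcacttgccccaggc
Cdk2: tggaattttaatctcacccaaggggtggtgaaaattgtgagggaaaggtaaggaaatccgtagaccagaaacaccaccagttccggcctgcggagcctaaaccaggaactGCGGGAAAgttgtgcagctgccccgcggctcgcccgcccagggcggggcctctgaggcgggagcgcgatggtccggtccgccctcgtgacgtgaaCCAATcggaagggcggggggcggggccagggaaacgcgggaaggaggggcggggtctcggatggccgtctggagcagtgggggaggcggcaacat

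Cdk1, Ccnb2 and Ccnf each held 2 CHR words, and no other promoter of the 8 genes held TTTGAA or TTCGAA. Other spellings of the CHR, the CCAAT box and the E2F site were not searched. A promoter without the words searched thus cannot be said to lack such an element. Counted from the annotated start as 0, the CHR words stood at -71 and -15 in Cdk1, at -167 and 4 in Ccnb2 and at -130 and -14 in Ccnf. CCAAT boxes numbered 3 in Cdk1, 3 in Ccnb2, 2 in Ccnf and 1 in Cdk2. The E2F words were 1 in Cdk1, at -131, and 1 in Cdk2, at -140. No matches of different motifs overlapped. Ccnb1 held 2 CCAAT boxes, the second of the 2 promoters of Ccnd3 held 1, and the promoters of Ccne1 and Cdk4 held none of these words. The words are matches of letters and not measured binding.

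The libraries held 75438190 to 80206796 recovered reads in the knockout and 72717465 to 94314770 in the control. Spp1 had 2.09, 1.98 and 3.90 scaled reads (reads divided by the authors' size factor of the library) in the knockout libraries and 149.3, 156.5 and 144.8 in the control libraries. The differences between the groups reached most of the transcriptome, with 63.0% of 15307 tested genes called at an adjusted p under 0.05 in limma, 34.4% higher and 28.6% lower in knockout. Mitochondrially encoded genes took 2.75% to 2.90% of scaled reads in knockout and 2.83% to 3.04% in control. All 7 melanocytic markers were listed, with summed levels of 1059700 to 1070400 scaled reads in knockout and 898570 to 914820 in control, so the markers of the labelled cell type were present. Most of the sum came from Tyrp1, Dct and Pmel. Tyrp1 and Dct, enzymes of melanin synthesis, rose by 0.28 and 0.35 on the log2 scale, Tyr, the tyrosinase gene, fell by 0.55, and Mitf and Sox10 stood at 0.01 and -0.05 and did not pass. Of the markers of other cells all 4 T cell genes had no row in the table, as did Ptprc and Adgre1 of the macrophage list, Cdh5, Kdr and Tek of the endothelial list, Dcn and Lum of the fibroblast list and Epcam, Krt8 and Krt18 of the epithelial list. The listed macrophage genes summed to 86.9 to 90.02 scaled reads in knockout and 269.3 to 279.9 in control, and Cd68 and Lyz2 among them fell, with log2 changes of -1.14 and -2.15. The 2 listed fibroblast genes, Pdgfra and Pdgfrb, summed to 625.6 to 727.0 in knockout and 1457 to 1729 in control and fell by 0.71 and 1.36. The endothelial gene Pecam1 stood at 6.83 to 8.37 in knockout and 8.05 to 8.36 in control, and the epithelial gene Krt14 at 25.7 to 30.3 and 24.02 to 30.1. These sums were all below the lowest value of any of the 10 genes, 4602 scaled reads, and the part of other cells in their changes was not tested.

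Of the 10 genes 4 rose, 5 fell and 1 did not pass the test in Spp1 knockout cells. The cyclins Ccnd1, Ccne1, Ccnf and Ccnb1 rose, the cyclins Ccna2 and Ccnb2 fell, and all 3 kinases fell. The share called, 9 of 10, has to be read beside the 63.0% of all tested genes that were called, and the 9 genes whose libraries did not overlap between the groups beside 67.1% of all tested genes. By direction, the 4 genes above control in every library stand beside 36.3% of all genes, and the 5 genes below it beside 30.8%. The median log2 change of the 10 genes was -0.08, against 0.03 over all tested genes, and the median size of the change was 0.45, against 0.25. That size is not net of neighbouring genes, which mostly fell around the 3 kinases and mostly rose around Ccnf, as described below. In whole-culture RNA, fewer cells in a phase of the cycle and less RNA per cell cannot be told apart.

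**Figure D1:**
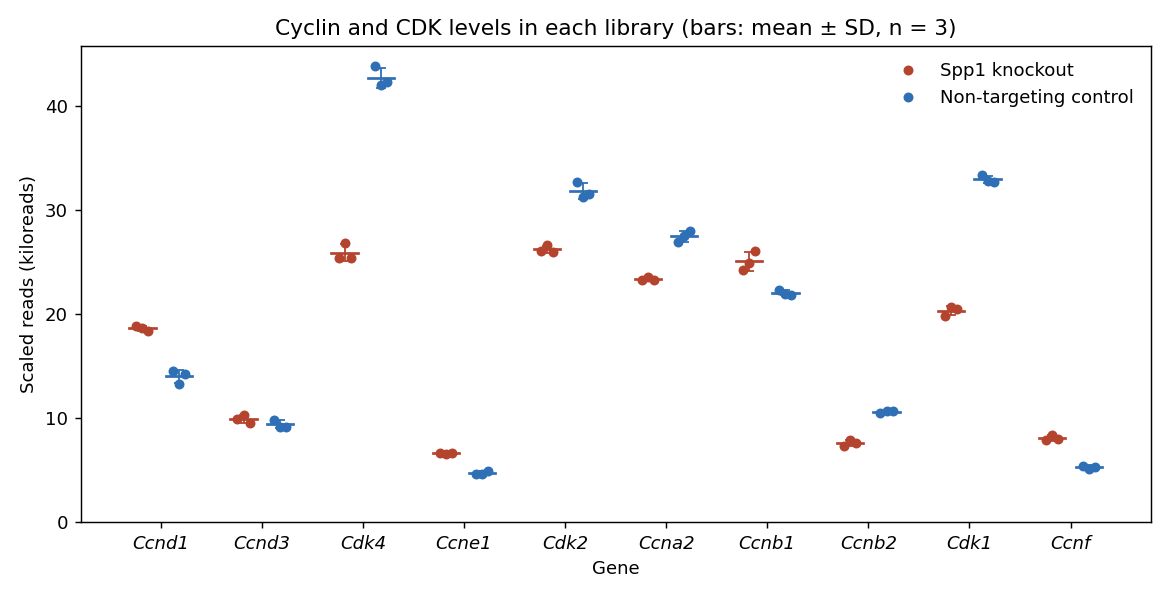
Scaled reads (axis in kiloreads) of the 10 genes in each library, with Spp1 knockout in red to the left of the non-targeting control in blue; points are libraries and bars the mean ± SD of 3. Only for Ccnd3 do the points of the groups overlap, and Cdk4 shows the widest gap, with 25421 to 26837 reads in knockout and 42040.4 to 43832 in control.

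Among the G1 genes cyclin D1 rose while its kinase fell. Ccnd1 had 18895, 18661 and 18434 scaled reads in the knockout libraries and 14557, 13266 and 14220.3 in the control libraries. Every knockout library lay above every control library, and the log2 change was 0.41 ± 0.04 (SE, limma adjusted p = 6.84e-08), a 1.33-fold rise. Its exons (chromosome 7, 144929931 to 144939925, minus strand, mm10) share 23.4% of their length with a neighbouring gene that the table lists as Oraov1. Without a known strand setting those reads cannot be told apart, and Oraov1 itself averaged 1396 scaled reads in knockout and 1209 in control.

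Ccnd3, the other D-type cyclin of the set, did not pass the test. It had 9947, 10288 and 9512 scaled reads in knockout and 9854, 9201 and 9160.2 in control. The groups overlapped, the log2 difference of 0.08 had a 95% interval of -0.005 to 0.16, and the limma adjusted p was 0.0947. Of its exon length (chromosome 17, 47505051 to 47599691, plus strand) 4.11% overlaps Bysl, which rose by 0.63 on the log2 scale. Without knockout 3 or without control 1 Ccnd3 passed, with log2 changes of 0.11 and 0.11 (limma adjusted p = 0.0351 and 0.0225).

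Cdk4, the kinase partner of the D-type cyclins, had 25421, 26837 and 25437 scaled reads in knockout and 43832, 42040.4 and 42370 in control. No knockout library came near a control library. The log2 change was -0.72 ± 0.03 (SE, limma adjusted p = 5.73e-11), which leaves 0.606 of the control level and is the largest fall among the 10 genes. Of its exon length (chromosome 10, 127063534 to 127067920, plus strand) 19.7% overlaps Tspan31, which also fell, by 0.68 on the log2 scale.

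At the entry into S phase the cyclin was again higher and the kinase lower. Net of its neighbouring genes on chromosome 10, described below, the kinase Cdk2 was higher too, at 0.43 in log2. Ccne1, cyclin E1 (chromosome 7, 38097984 to 38107534, minus strand), had 6612, 6604 and 6621 scaled reads in knockout and 4602, 4652 and 4906 in control. Its 3 knockout libraries were nearly equal and all above control. The change was 0.49 ± 0.03 on the log2 scale (SE, limma adjusted p = 8.09e-09), a 1.40-fold rise. Cdk2 (chromosome 10, 128697939 to 128705031, minus strand) had 26051, 26625 and 26015 scaled reads in knockout and 32698, 31260.1 and 31520.3 in control. All knockout libraries lay below all control libraries, with a fall to 0.824 of the control level, or -0.28 ± 0.03 in log2 (SE, limma adjusted p = 8.39e-07). This was the smallest fall of the 3 kinases. Of its exon length 0.547% overlaps Pmel, a gene of far more reads (173400 scaled reads on average in knockout and 148200 in control) that rose.

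Ccna2, cyclin A2, which carries cells through S and G2 phase, was slightly lower. It had 23296, 23593 and 23303 scaled reads in knockout and 26921, 27485 and 28021 in control. The groups did not overlap, and the log2 change was -0.23 ± 0.03 (SE, limma adjusted p = 4.62e-06), or 0.852 of the control level. The gene (chromosome 3, 36564865 to 36572150, minus strand) shares 12.5% of its exon length with Exosc9, which fell by 0.20 on the log2 scale.

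The B-type cyclins parted, and their kinase fell. Ccnb1, cyclin B1 (chromosome 13, 100778650 to 100786570, minus strand), had 24265, 24949 and 26072 scaled reads in knockout and 22374, 21986 and 21861 in control, a 1.14-fold rise of 0.18 ± 0.03 in log2 (SE, limma adjusted p = 0.000128). Its libraries were all higher in knockout, though by the smallest margin of the genes that passed. Of its words of 50 bases 23.4% also occur in other genes, most often the pseudogene Ccnb1-ps. How far this alters its measured level was not tested.

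Ccnb2, cyclin B2 (chromosome 9, 70407692 to 70421547, minus strand), had 7366, 7876 and 7579 scaled reads in knockout and 10542, 10661 and 10685 in control. It was lower in every knockout library, at 0.715 of the control level, or -0.48 ± 0.03 in log2 (SE, limma adjusted p = 5.46e-09). Cdk1, the mitotic kinase (chromosome 10, 69335146 to 69352938, minus strand), had 19817, 20720.0 and 20533 scaled reads in knockout and 33375, 32817 and 32749 in control. Its groups stood far apart, and the log2 change was -0.70 ± 0.03 (SE, limma adjusted p = 3.93e-11), or 0.617 of the control level.

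Ccnf, cyclin F (chromosome 17, 24222198 to 24251484, minus strand), showed the largest rise of the 10 genes. It had 7911, 8423 and 8020 scaled reads in knockout and 5416, 5073 and 5345 in control. Every knockout library was higher, and the log2 change was 0.62 ± 0.04 (SE, limma adjusted p = 1.17e-09), a 1.54-fold rise. Of the 3 genes with CHR words Ccnf rose and Cdk1 and Ccnb2 fell. Each went in the direction of the median of its neighbouring genes, described below.

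Per kilobase of annotated exon, Cdk4 was the most abundant of the 10 in both groups, at 7971 ± 250.2 scaled reads per kilobase in knockout and 13157 ± 293.6 in control (SD, n = 3 each). In knockout it was followed by Ccnb1, Ccna2, Ccnb2, Cdk2, Cdk1, Ccnd1, Ccne1, Ccnd3 and Ccnf, at levels per kilobase of 5951, 5730, 4969, 4218, 4126, 3963, 2484, 1130.0 and 1041. Within that order Ccnb1 and Ccna2, and Cdk2 and Cdk1, overlapped between libraries. In control the order was Ccnb2, Ccna2, Cdk1, Ccnb1, Cdk2, Ccnd1, Ccne1, Ccnd3 and Ccnf, at 6943, 6729, 6684, 5234, 5118, 2976, 1773, 1072 and 677. There the overlaps were of Ccna2 with Cdk1 and of Ccnb1 with Cdk2. The exon length is that of all annotated isoforms together, so an order between genes depends on which isoforms the cells use.

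Within a library, shares and ratios of these levels do not depend on the scaling of the libraries. Of cyclin B RNA per kilobase, Ccnb1 made up 54.5% ± 1.02 in knockout and 43.0% ± 0.473 in control (SD, n = 3 each). Per kilobase Ccnb1 was thus the more abundant B-type cyclin in each knockout library, at 53.5% to 55.5%, and the less abundant in each control library, at 42.6% to 43.5%. This change of order depends on the division by exon length. In scaled reads Ccnb1 exceeded Ccnb2 in every library, with means of 25095 and 7607 in knockout and 22074 and 10629 in control. Among the 3 kinases the share of Cdk2 was 25.9% ± 0.280 in knockout and 20.5% ± 0.0965 in control, that of Cdk4 48.9% ± 0.469 and 52.7% ± 0.158, and that of Cdk1 25.3% ± 0.381 and 26.8% ± 0.255. Of Ccnd1 and Ccnd3 together, Ccnd1 made up 77.8% ± 0.587 in knockout and 73.5% ± 0.732 in control. Each of these 5 shares had an exact two-sided permutation p of 0.1, the smallest that 3 against 3 libraries can give.

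For 6 of 7 pairs of partners the ratio of cyclin to kinase RNA was higher in every knockout library than in every control library. All 3 kinases lie on chromosome 10, where 585 of 689 other tested genes were lower in knockout and 26 higher, with Cdk1 set aside. Ratios of other genes to these kinases were not tested. Net of the median change of neighbouring genes, described below, Ccnd1, Ccnd3 and Cdk4 stood at 0.35, -0.008 and -0.23 in log2. On that scale Ccne1 and Cdk2 stood at 0.39 and 0.43, and Ccnb1, Ccna2, Ccnb2 and Cdk1 at 0.07, 0.09, -0.22 and -0.10. The ratio of Ccnd1 to Cdk4 per kilobase was 0.498 ± 0.0167 in knockout and 0.226 ± 0.00739 in control (SD, n = 3 each), 2.20 times as high. For Ccnb1 to Cdk1 it was 1.44 ± 0.0393 in knockout and 0.783 ± 0.00181 in control, for Ccnd3 to Cdk4 0.142 ± 0.00322 and 0.0814 ± 0.00163, for Ccna2 to Cdk1 1.39 ± 0.0271 and 1.01 ± 0.0299, for Ccne1 to Cdk2 0.589 ± 0.00830 and 0.347 ± 0.0175, and for Ccnb2 to Cdk1 1.204 ± 0.0186 and 1.04 ± 0.0182 (SD, n = 3 each). These 6 ratios separated the groups completely, with an exact two-sided permutation p of 0.1, again the smallest possible. Ccna2 to Cdk2 did not, at 1.36 ± 0.00788 in knockout and 1.32 ± 0.0540 in control (exact permutation p = 0.2, n = 3 each), since both genes fell by similar amounts. The ratios were chosen after the values of the genes were seen, and several share a kinase. Their separation and p-values thus add no support beyond the changes of the single genes.

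**Figure D2:**
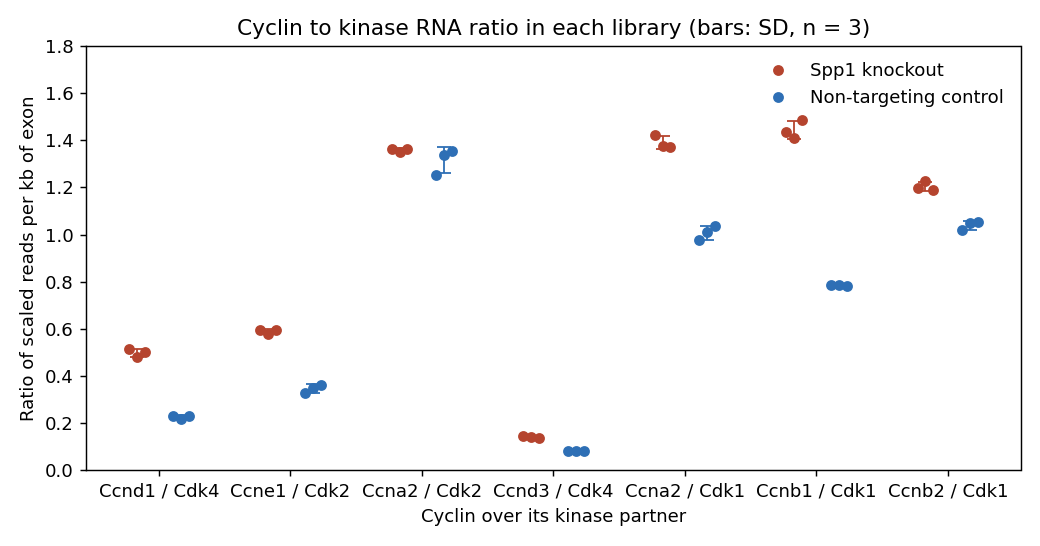
Ratio of cyclin to kinase RNA, both in scaled reads per kilobase of exon, in each library, with Spp1 knockout in red to the left of the control in blue; points are libraries and bars the SD of 3. The groups stand apart for Ccnd1 over Cdk4 (2.20 times as high), Ccnb1 over Cdk1 (1.84 times), Ccnd3 over Cdk4 (1.74 times), Ccne1 over Cdk2 (1.70 times), Ccna2 over Cdk1 (1.38 times) and Ccnb2 over Cdk1 (1.16 times), and they overlap for Ccna2 over Cdk2. The kinases all lie on chromosome 10, where most tested genes were lower in knockout.

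The changes of the 10 genes were set beside those of the genes next to them on the chromosome. Cdk1, Ccnf, Ccnb1, Ccna2 and Ccnd3 differed from their neighbours by 0.10 or less in log2, and the other 5 genes by 0.22 or more. In each library the median deviation of up to 25 tested genes on either side was taken, and the neighbours' median is the mean of these medians in knockout minus that in control. A value from which the median was subtracted in every library is called net of the neighbours. Around Cdk1, Cdk4 and Cdk2, all on chromosome 10, the neighbours' median was -0.60, -0.50 and -0.71. In those 3 stretches 44 of 50, 46 of 50 and 37 of 41 neighbours were called lower and 1 in each was called higher. The stretches hold no gene in common. Over chromosome 10 as a whole 585 of 689 other tested genes were lower in knockout than in control and 26 higher, when Cdk1 is set aside. For Ccnf on chromosome 17, 43 of 50 neighbours rose and the median was 0.55. Ccna2 and Ccnb2 lay among genes with medians of -0.32 and -0.27, and 36 and 28 of their 50 neighbours fell. For Ccnb1, Ccne1, Ccnd3 and Ccnd1 the medians were small, at 0.12, 0.10, 0.08 and 0.07.

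**Figure D3:**
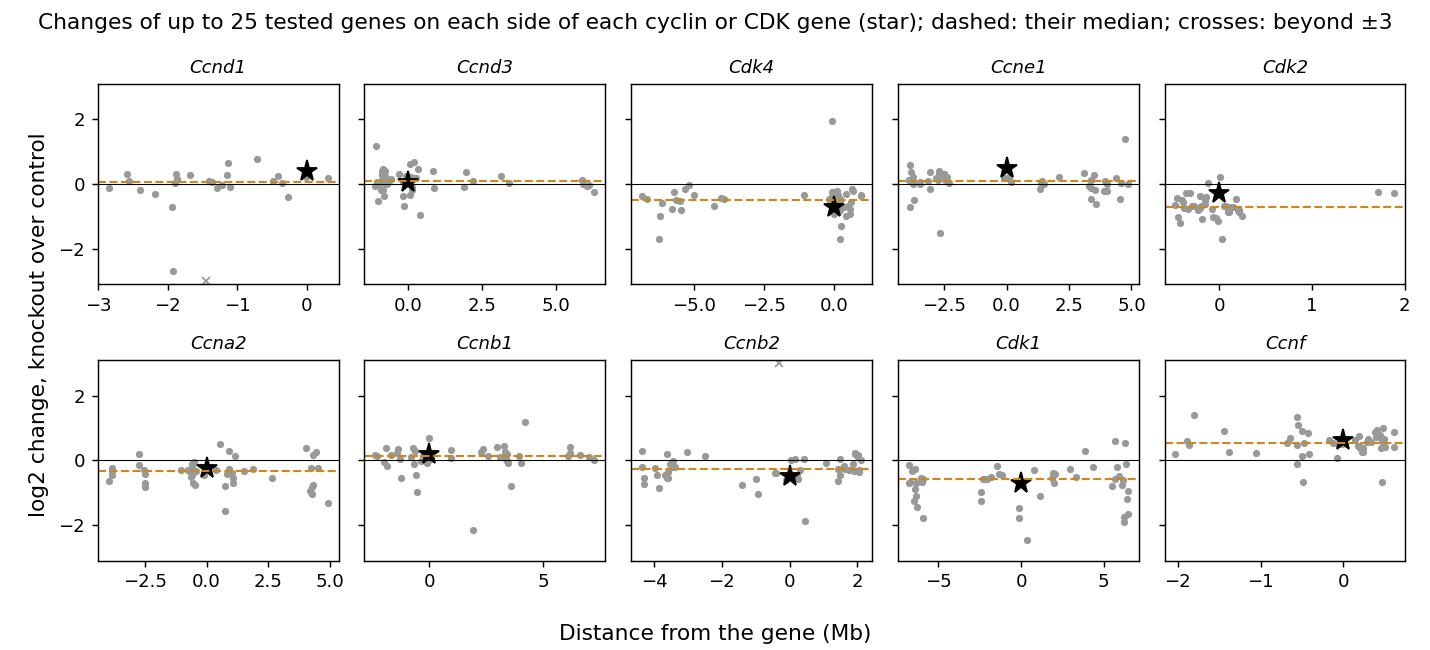
Log2 change of knockout over control for each of the 10 genes (star) and for up to 25 tested genes on each side (grey points, crosses beyond ±3) against the distance in Mb; the dashed line is the median change of the neighbours. The neighbours of the 3 kinases and of Ccna2 and Ccnb2 lie mostly below 0 and those of Ccnf mostly above, while Cdk2 stands above 37 of its 41 neighbours.

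Net of the neighbours, Cdk2 changed its direction. It stood at 0.43 ± 0.03 (SE, limma adjusted p = 6.80e-10), higher in knockout, and 37 of its 41 neighbours had a lower change. Ccne1 and Ccnd1 kept most of their rise, at 0.39 ± 0.04 and 0.35 ± 0.04 (SE, limma adjusted p = 1.82e-08 and 1.20e-07). Of their neighbours 48 of 50 and 24 of 26 had a lower change, and those of Ccnd1 lay nearly all on one side of it. Net of 10 neighbours on each side Ccne1 and Ccnd1 stood at 0.35 and 0.24. Cdk4 and Ccnb2 were still lower, at -0.23 ± 0.03 and -0.22 ± 0.04 (SE, limma adjusted p = 1.41e-05 and 0.000154). Net of 10 neighbours on each side Cdk4 and Ccnb2 stood at -0.27 and -0.15. Cdk1 retained a small fall of -0.10 ± 0.03 (SE, limma adjusted p = 0.0166).

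The other 4 genes ended near 0 on this scale. Ccnf stood at 0.07 ± 0.04 and Ccnb1 at 0.07 ± 0.03, and neither passed (SE, limma adjusted p = 0.117 and 0.0956). Ccnf passed with 10 or 50 neighbours on each side, at 0.12 and 0.11 (limma adjusted p = 0.0220 and 0.0170), and Ccnb1 with 50, at 0.08 (limma adjusted p = 0.0473). Ccna2 turned to 0.09 ± 0.03, which passed with 25 neighbours on each side (limma adjusted p = 0.0202) and not with 10 or 50 (limma adjusted p = 0.0535 and 0.0634). Ccnd3 was at -0.008 (limma adjusted p = 0.879). Net of 25 neighbours 4 of the 10 genes rose, 3 fell and 3 did not pass, where 57.4% of all genes passed, 29.2% higher and 28.2% lower. Among the genes with CHR words the net changes were -0.22 for Ccnb2, -0.10 for Cdk1 and 0.07 for Ccnf. What lies behind the shared shift of neighbouring genes was not tested.

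**Figure D4:**
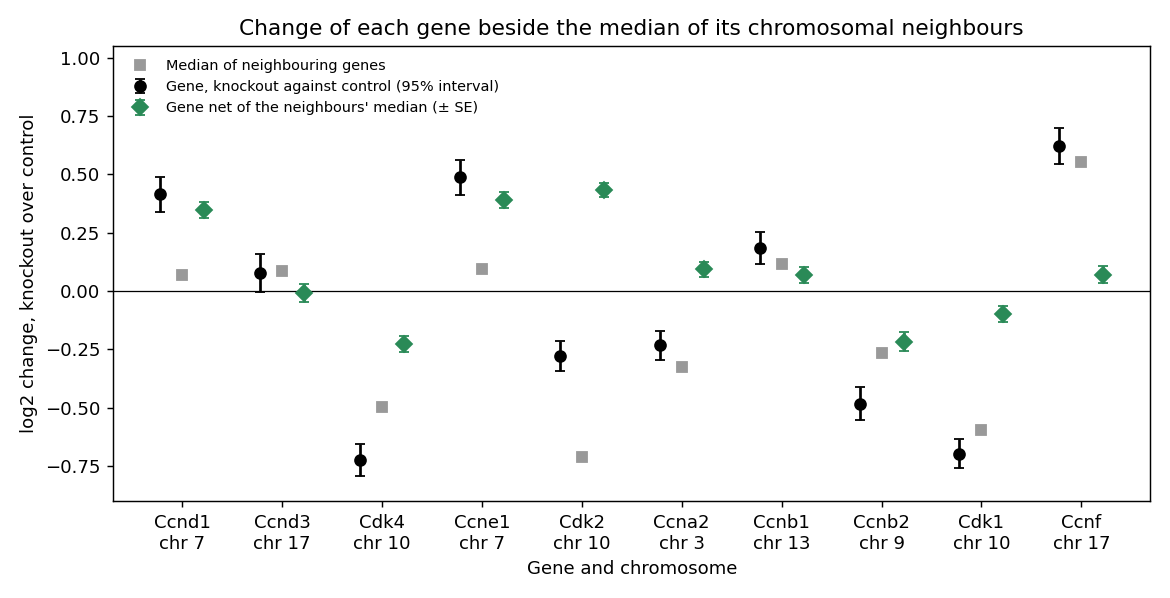
Log2 change of knockout over control for each of the 10 genes (black, with its 95% interval), the median of its chromosomal neighbours (grey squares) and the change net of that median (green, ± SE). Cdk1 and Ccnf lie close to their neighbours, Cdk2 lies 0.43 above its neighbours and Ccnd1 and Ccne1 stay at 0.35 and 0.39.

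The genes most like Ccnf and Cdk4, the members with the largest rise and fall, were sought by the Euclidean distance of the 6 log2 values after the control mean was subtracted, among 11563 tested genes with a mean of at least 100 scaled reads. Nearest to Ccnf were Prr3 and Kctd5, both on chromosome 17, and the replication licensing gene Cdt1, at distances of 0.0585, 0.0616 and 0.0721. Nearest to Cdk4 were Gstm2 on chromosome 3 and Ascc1 and Smarcb1 on chromosome 10, at 0.0291, 0.0597 and 0.0602. Their log2 changes were 0.61, 0.64 and 0.66 for the first set and -0.74, -0.70 and -0.70 for the second. These are alike because the genes were picked by the same values. Within a distance of 0.2 lay 263 genes for Ccnf and 234 for Cdk4, so the named genes are not particular to them.

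Of 4 other cyclins of the cell cycle 3 were tested and Ccnb3 had no row. Of these 2 rose and 1 fell, beside 34.4% and 28.6% of all tested genes. Ccnd2, the third D-type cyclin, had 64120, 62330 and 61250 scaled reads in knockout and 49020, 46210 and 48420 in control (log2 change 0.39 ± 0.03, SE, limma adjusted p = 4.55e-08). Per kilobase it stood at 6650 in knockout and 5089 in control, above Ccnd1 and Ccnd3 in both groups. Ccne2, the second E-type cyclin, rose by 0.18 on the log2 scale. Net of 10 or 50 neighbours Ccne2 no longer passed, at 0.09 and 0.07 (limma adjusted p = 0.0586 and 0.0676), which leaves 1 of the 3 higher. Ccna1, a cyclin best known from germ cells, was nearly silent at 15.7 ± 1.83 scaled reads in knockout and 37.6 ± 3.44 in control (SD, n = 3 each).

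Among 15 cyclins of transcription and other roles 8 rose and 3 fell, beside 34.4% and 28.6% of all tested genes. The other 4 did not pass, and the median log2 change was 0.17. With equal totals 8 rose and 5 fell. Ccng1, cyclin G1, a target of p53, stood at 43050 ± 1461 scaled reads in knockout and 24450 ± 414.4 in control (SD, n = 3 each, log2 change 0.82), and Ccnjl rose by 0.99. Ccng2 and Ccnl1 fell by 0.46 and 0.27 on the log2 scale, and Ccnl1 stood at 0.05 net of the neighbours (limma adjusted p = 0.252).

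Of 16 other cyclin-dependent kinases 10 rose and 4 fell, beside 34.4% and 28.6% of all tested genes. The median was 0.18, and with equal totals 9 rose and 6 fell. Cdk12 and Cdk8, kinases of transcription, rose by 0.50 and 0.43. Cdk19, a paralogue of Cdk8, and Cdk17 fell by 1.02 and 0.42, and both lie on chromosome 10. Net of the neighbours Cdk19 stood at -0.40 and Cdk17 at 0.24. Without knockout 1, 2 in place of 4 of these kinases were lower. Cdk6, the second kinase of the D-type cyclins, was low, at 202.0 scaled reads per kilobase in knockout and 169.2 in control.

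Of 7 CDK inhibitors 5 were listed and 4 tested, and Cdkn2a and Cdkn2b had no row. Of the 4 tested, 2 rose and 1 fell, beside 34.4% and 28.6% of all tested genes. Cdkn1a, the p21 inhibitor induced by p53, rose by 0.31 and Cdkn2d by 0.14 on the log2 scale, and Cdkn2c fell by 0.29. Cdkn1b did not pass, at -0.03 (limma adjusted p = 0.608). Each of the 3 calls was lost in some centring on the neighbours. Cdkn2d stood at 0.03 net of 25 (limma adjusted p = 0.558), Cdkn1a at 0.09 net of 50 (limma adjusted p = 0.0637) and Cdkn2c at -0.05 net of 10 (limma adjusted p = 0.483). No inhibitor was thus higher net of 50 neighbours, and none lower net of 10. Net of 25 neighbours 1 was higher and 1 lower, beside 29.2% and 28.2% of all genes. The list median was 0.06.

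Genes that set the activity of the kinases moved both ways. Of 9 tested, 3 rose and 4 fell, beside 34.4% and 28.6% of all tested genes, with a median of -0.02. Pkmyt1 and Wee1, which place inhibitory phosphates on Cdk1, rose by 0.90 and 0.47. Pkmyt1 had 1880.0 ± 113.8 scaled reads in knockout and 1006 ± 83.4 in control (SD, n = 3 each), and lies on chromosome 17, where it stood at 0.40 net of the neighbours. Cks2, an adaptor of Cdk1 for which 29.7% of the 50-base words also occur elsewhere in the annotated transcripts, and the phosphatase gene Cdkn3 fell by 0.38 and 0.31.

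Of 13 RB and E2F factors 4 rose and 4 fell (median 0.03), and net of the neighbours 8 rose and 4 fell. Over all tested genes 34.4% were higher and 28.6% lower, and net of the neighbours 29.2% and 28.2%. E2f8 and E2f1 rose by 0.54 and 0.37, while E2f5 and Tfdp2 fell by 0.20 and 0.17. Set against their neighbours these 2 were higher, at 0.13 and 0.20. Of 7 DREAM and MuvB factors 3 rose and 0 fell in limma, in edgeR and in DESeq2, and the median was 0.10. At an unadjusted limma p under 0.05 also 0 were lower. The limma counts stand beside the same 34.4% and 28.6% of all tested genes. Mybl2 rose by 0.53, and Foxm1, an activator of mitotic genes, had 23210 ± 730.1 scaled reads in knockout and 17120 ± 1095 in control (SD, n = 3 each, log2 change 0.44). Of the 50-base words of Mybl2 19.3% occur in another annotated gene.

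The machinery that destroys cyclins gave 11 genes higher and 7 lower of 24, beside 34.4% and 28.6% of all tested genes. The median was 0.06. The split turned with equal library totals, to 6 higher and 8 lower, and with edgeR on 5 libraries, to 7 and 8, while DESeq2 on 5 libraries gave 7 and 7. Skp2, the F-box protein that recognises Cdkn1b, rose by 0.57 and Fbxo31, which targets cyclin D1, by 0.45. Anapc13, a subunit of the anaphase-promoting complex, fell by 0.58, and Fzr1, its G1 activator on chromosome 10, fell by 0.48 and stood at -0.007 net of the neighbours (limma adjusted p = 0.878).

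Of 10 proliferation markers 7 were higher, beside 34.4% of all tested genes, and the median was 0.14. With equal totals 6 were higher, and 5 in edgeR and 5 in DESeq2. None was lower in limma, also at an unadjusted p under 0.05, or in edgeR or DESeq2. In limma 28.6% of all tested genes were lower. Net of the neighbours 2 were higher and 1 lower, beside 29.2% and 28.2% of all genes. Rrm2, a subunit of ribonucleotide reductase, rose by 0.45 and Tyms, thymidylate synthase, by 0.34. Over all tested genes the median was 0.03.

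**Figure D5:**
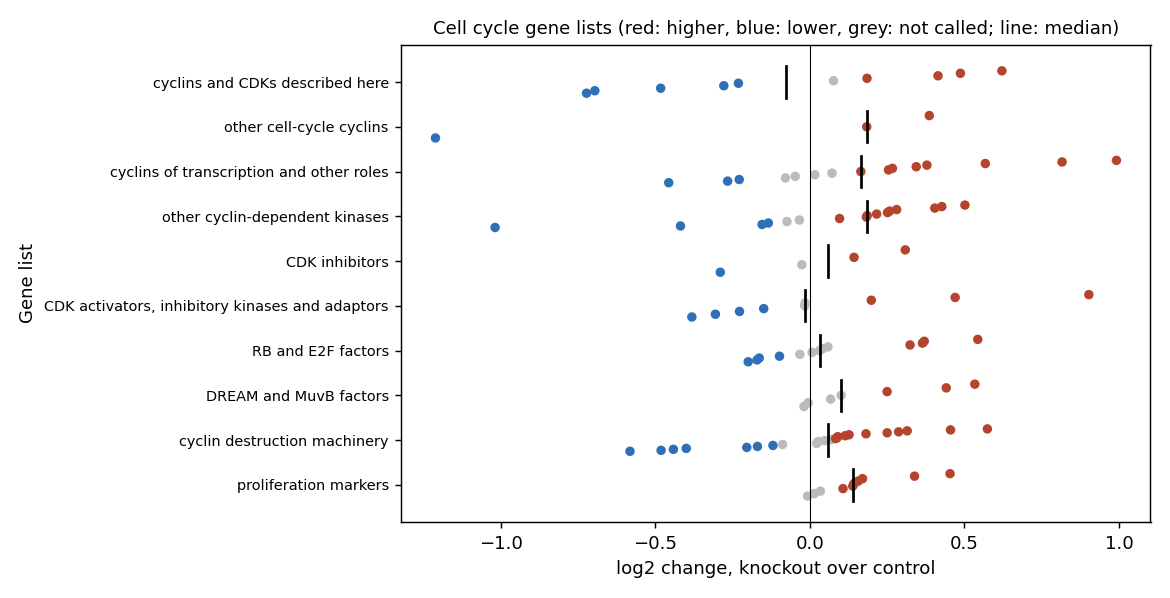
Log2 change of knockout over control of every tested gene of the cyclins and kinases described here and of 9 lists of related genes, red where higher, blue where lower and grey where not called; black lines are list medians. The 10 genes lie between -0.72 and 0.62 with a median of -0.08, and 5 of their 10 points are blue.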

How the data were processed

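The deposited table holds signal values, reads per gene divided by 1 size factor per library, computed by the authors with DESeq per the series' design text. Per the submitters' processing notes cutadapt 1.6, STAR 2.5.0a, HTSeq 0.5.3, DESeq and mm10 were used. The sources used here do not give the annotation release, the strand setting or any gene filter. Values are whole multiples (tolerance 0.001) of the smallest value of their column, taken as 1 read, for 100% of values. EdgeR and DESeq2 used 5 libraries. Knockout 2, where 1 read was worth 0.989, was left out there because a second check of its low values did not find whole reads. EdgeR called 8879 genes and DESeq2 8123. Positions, exon lengths and shared words came from GENCODE M21 on GRCm38, matching 19121 of 19213 IDs.

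Log2(value + 1) was fitted in limma 3.58.1 (R 4.3.3, trended and robust variance, two-sided, Benjamini-Hochberg over 15307 genes with at least 10 scaled reads in 3 libraries, threshold 0.05). Changes are on that scale. EdgeR 4.0.16, DESeq2 1.42.0 and scipy 1.17.1 (permutation tests) were also used. The limma fit was also run on simulated data with few changed genes and no shifts shared by neighbouring genes. That setting differs from these data, so the run does not vouch for the calls here. No replicates were alike within sampling noise (chi-square 6.27 to 18.7 per degree of freedom). The members and lists were chosen with earlier results of these data known. In each list up to 2 genes higher and 2 lower with the largest change are named, or the gene with the highest mean where none passed. Further genes (Oraov1, Tspan31, Exosc9, Bysl, Cdk6, Cdkn1b, Pmel, Mitf, Sox10) were named after their values were seen. Alternatives were the pseudocount, filter, scaling, variance model, read counts, replicate block, single libraries and local centring.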

Additional observations from a re-analysis of the deposited data

How the results depend on the processing

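The 9 calls among the 10 genes and their directions held with pseudocounts of 0.5 and 5, no filter, a minimum of 50, equal totals, TMM rescaling, no trend or robust estimation, edgeR and DESeq2 on 5 libraries and without any single library. Centring on neighbouring genes was the one choice that ended or turned calls among them. Net of 25, 10 and 50 neighbours on each side, 3 genes in place of 5 were lower. Cdk2 then stood at 0.43, 0.46 and 0.37, Ccna2 at 0.093, 0.089 and 0.069 and Ccnd3 at -0.0077, -0.032 and -0.035. Ccnb1 lost its call at 25 and 10 (0.069 and 0.057) and Ccnf at 25 (0.070). Ccnd3 passed without knockout 3 (0.11) and without control 1 (0.11). The cause of these shifts was not tested. Leaving out single libraries, log2 changes ranged from 0.049 to 0.11 for Ccnd3.

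Among other genes the same centring at 25, 10 and 50 neighbours turned Cdk17 (0.24, 0.20 and 0.19), Tfdp2 (0.20, 0.17 and 0.16), E2f5 (0.13, 0.15 and 0.11) and Ccnl1 (0.052, 0.097 and 0.048), and in part Cdkn2d (-0.029 at 10 and -0.011 at 50), Fzr1 (0.056 at 50) and Krt14 (-0.10 at 10), and ended calls of Ccne2, Cdkn1a, Cdkn2c, Cdkn2d and Fzr1 in some windows. Without division by exon length the share of Ccnd1 differed by 5.48 percentage points between knockout and control, that of Ccnb1 by 9.24, of Cdk1 by -2.58 and of Cdk2 by 6.60, in place of 4.31, 11.5, -1.49 and 5.35. Scaling moved the median of all genes by -0.05 (equal totals), -0.02 (TMM) and -0.04 (edgeR).

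The labels name no pairing of the samples. Same-numbered libraries deviated from their group means with correlations of -0.11, -0.24 and -0.04. No effect shared by replicate number was thus seen, though so few libraries cannot exclude a pairing. With the replicate block 9289 genes in place of 9640 were called, and 4 of the 10 genes rose and 5 fell as without it. The 95% intervals and SEs rest on 3 libraries a group.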

Other observations

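Of the genes of the related cell cycle lists, Cdk17, Cdk19, E2f7, Fbxo5 and Fzr1 lie on chromosome 10 together with Cdk1, Cdk2 and Cdk4, and E2f7 and Fbxo5 are named here after their values were seen. E2f7, an atypical E2F that represses, had 2250.0, 2284 and 2094 scaled reads in knockout and 2449, 2365 and 2615 in control, and Fbxo5, an inhibitor of the anaphase-promoting complex, had 4342, 4432 and 4264 in knockout and 5608, 5624 and 5983 in control. Both were lower in every knockout library, by 0.16 and 0.40 on the log2 scale (limma adjusted p = 0.00714 and 1.29e-07). Net of their neighbours they stood at 0.33 and 0.15, higher in knockout, as Cdk2 and Cdk17 did (limma adjusted p = 4.15e-06 and 0.00146 for E2f7 and Fbxo5). Cdk19, Cdk4 and Cdk1 went the other way, at -0.40, -0.23 and -0.10 net of their neighbours, and Fzr1 stood at -0.007. On the same chromosome Pmel, the melanosome matrix gene, was higher in every knockout library, at 175800, 176900 and 167400 scaled reads, against 151600, 143300 and 149800 in control. Its log2 change was 0.23, and 0.94 net of its neighbours (limma adjusted p = 1.74e-05 and 2.55e-14), while Tyr on chromosome 7 had fallen.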
